A study of Mus musculus with 12 samples.

Results

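The renin-angiotensin system was followed here through 9 genes in mouse heart muscle: its substrate Agt, the peptidases Ace, Enpep, Anpep and Mme, the receptors Agtr1a and Mas1, and the receptor-associated proteins Agtrap and Atp6ap2. They were chosen by gene symbol in the platform annotation, with the probe set of highest mean over the 12 arrays used for each gene. All 9 of 9 had a probe set, 1 each, among 19505 named genes, and 8 of the 9 were among the 13653 genes tested. Mas1 lay in the dimmest 30% of genes, which were left out of the tests.

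Myocardium of 3 groups of 4 mice was measured on single-colour Affymetrix arrays, 1 array a mouse, as the series design describes 4 mice in each group. The AngIV mice were diabetic and received angiotensin IV, a peptide fragment of angiotensin II, by infusion at 2.88 mg/kg/day from the end of week 8 to the end of week 24. The DM mice were diabetic and the labels give them no infusion. The NC mice were injected with vehicle in place of streptozotocin and the labels give them no infusion either. Diabetes was made in both AngIV and DM mice by intraperitoneal streptozotocin, a toxin of the insulin-producing beta cells, on 5 consecutive days, and only those whose fasting blood glucose had reached 16.7 mM or more 2 weeks after it were kept, so the model is one of insulin loss in mice selected for high glucose. The source names carry 6 months for all groups, and strain and sex are not stated in the labels used here. A disease state tag in the labels goes against the titles and source names (it marks NC as diabetic and AngIV as negative control) and was not used.

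Angiotensinogen is cut by renin to angiotensin I, which angiotensin-converting enzyme turns into angiotensin II, the ligand of the type 1 receptor that raises blood pressure and promotes growth and fibrosis in the heart. Aminopeptidase A removes the first residue of angiotensin II to give angiotensin III, and aminopeptidase N removes the next to give angiotensin IV, the peptide infused here. Neprilysin and other peptidases lead instead to angiotensin 1-7, a ligand of Mas, which opposes many actions of the type 1 receptor.

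Myocardium was well represented: the mean of 9 ventricular cardiomyocyte markers was 11.27 to 11.34 in AngIV, 11.19 to 11.28 in DM and 11.20 to 11.36 in NC hearts (log2 signal, range over 4 arrays). Atrial tissue was uneven, since the mean of 7 atrial markers was 5.12 to 5.42 in AngIV, 4.85 to 7.69 in DM and 5.23 to 8.13 in NC hearts. The mean of 9 macrophage markers was 5.48 to 6.34 in AngIV, 5.46 to 6.56 in DM and 5.42 to 5.69 in NC hearts. The 95th percentile of 5222 negative control probe sets, used here as the level of background, lay between 5.39 and 5.60 on the 12 arrays. In whole tissue, fewer cells of a type and less RNA per cell cannot be told apart.

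The promoters of 4 members are shown because their signals are the subject of most of what follows: the substrate gene, and 3 members above background on all arrays, of which Anpep varied most and Atp6ap2 least between mice of a group. Each line gives 120 bases before and 50 after an annotated start, 5′ to 3′ in the gene's direction, with capitals at every CG and at TATAAA read on either strand. Sequences and positions are those of RefSeq on GRCm38.p6, in which 8 of 9 members (all but Agtr1a) were matched. For Ace, which has more than 1 entry, the upstream start is shown.
Agt, chr8:124569657-124569826, minus strand: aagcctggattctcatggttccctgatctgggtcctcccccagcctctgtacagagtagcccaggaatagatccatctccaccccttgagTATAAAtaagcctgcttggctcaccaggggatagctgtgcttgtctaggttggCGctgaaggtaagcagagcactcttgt
Ace, chr11:105967828-105967997, plus strand: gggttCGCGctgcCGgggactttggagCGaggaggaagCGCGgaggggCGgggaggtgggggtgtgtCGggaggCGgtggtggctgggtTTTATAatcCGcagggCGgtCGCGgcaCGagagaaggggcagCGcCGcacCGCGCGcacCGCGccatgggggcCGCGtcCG
Anpep, chr7:79848161-79848330, minus strand: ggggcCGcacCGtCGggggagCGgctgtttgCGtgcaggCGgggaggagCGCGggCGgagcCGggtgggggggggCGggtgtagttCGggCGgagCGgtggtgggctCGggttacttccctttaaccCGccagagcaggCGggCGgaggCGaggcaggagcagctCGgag
Atp6ap2, chrX:12587639-12587808, plus strand: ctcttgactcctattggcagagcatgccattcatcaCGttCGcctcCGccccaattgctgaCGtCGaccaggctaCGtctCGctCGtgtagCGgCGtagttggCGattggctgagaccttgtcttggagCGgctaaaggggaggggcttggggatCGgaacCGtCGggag

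Agt, on chromosome 8, has TATAAA beginning 30 bases before its start, and its 300-base window (250 before to 50 after) holds 1 CG. The upstream Ace window holds the same letters on the other strand, beginning 31 bases before the start, together with 29 CG. Neither Anpep nor Atp6ap2 has TATAAA in its window, and these windows hold 28 and 24 CG. Of all 32851 windows of this length, 13.6% hold TATAAA on either strand, and the median window has 7 CG. Over the tested genes with a window, the median SD between mice of a group was 0.19 log2 units for 1149 genes with TATAAA and 0.18 for the others, a description made after the values had been seen.

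None of the 8 tested members passed the test in any of the 3 comparisons. By limma with Benjamini-Hochberg adjustment over all tested genes, at an adjusted p under 0.05, 0 of 8 were called in DM against NC, where 0.0220% of all genes were. In AngIV against DM 0 of 8 were called, against 0% of all genes, and in AngIV against NC 0 of 8, against 2.15% of all genes. At an unadjusted p under 0.05 the counts of members were 0, 0 and 1, against 10.7%, 8.78% and 18.6% of all genes in the same order of comparisons. The arrays of the groups compared overlapped for every tested member in each comparison, so 0 of 8 were separate, where 5.30%, 5.76% and 12.8% of all genes were. In each comparison 5 members had a positive and 3 a negative change. The median change was 0.08 in DM against NC, 0.06 in AngIV against DM and 0.10 in AngIV against NC on the log2 scale, where the medians of all genes were -0.0016, 0.012 and 0.0033. The 3 comparisons share arrays, so their results are not independent.

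**Figure D1:**
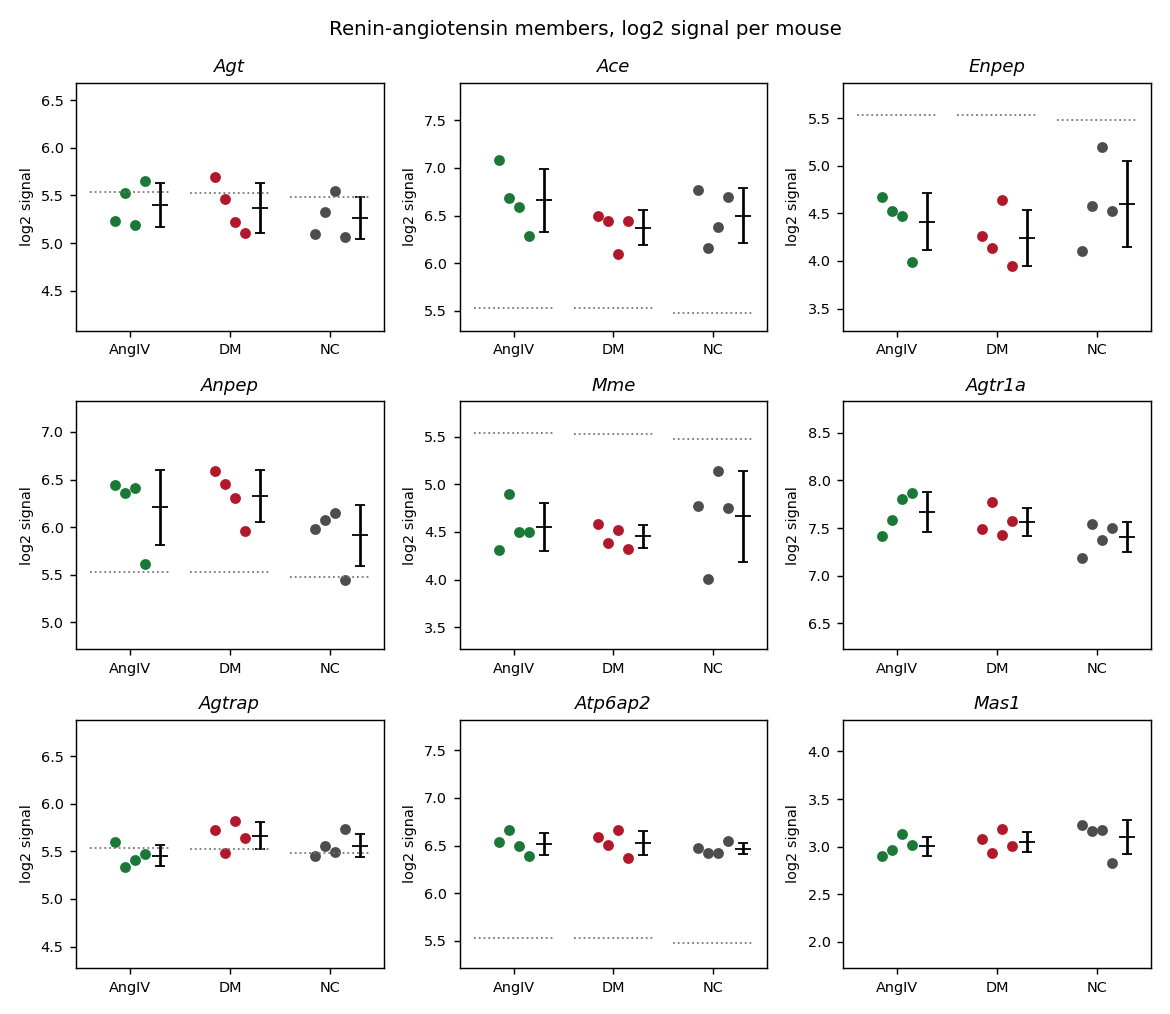
Log2 signal of the 9 members in AngIV, DM and NC hearts, 1 point a mouse, with the mean and SD of 4 mice beside each group and the group's mean 95th percentile of negative controls as a dotted line where it falls in the panel. Every panel spans the same number of log2 units, and the points of the groups overlap in each.

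Agt encodes angiotensinogen, the only known precursor of the angiotensin peptides, which is made mainly by the liver. Its log2 signal was 5.23, 5.52, 5.19 and 5.66 on the 4 AngIV arrays, 5.69, 5.46, 5.22 and 5.11 on the DM arrays and 5.10, 5.33, 5.55 and 5.07 on the NC arrays. It passed the background level on 2 AngIV arrays, 1 DM array and 1 NC array, and the highest and lowest mice of each group spanned nearly the same range. The differences, of signals near background, were 0.11 in DM against NC (95% interval -0.21 to 0.44, limma adjusted p = 0.85) and 0.03 in AngIV against DM (-0.30 to 0.35, limma adjusted p = 0.972). In AngIV against NC the difference was 0.14 (-0.19 to 0.47, limma adjusted p = 0.678).

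Ace encodes angiotensin-converting enzyme, which in the heart is found mainly on endothelium and which also degrades bradykinin. It was above background on all 12 arrays. Its log2 signal was 7.09, 6.68, 6.59 and 6.28 in AngIV hearts, 6.49, 6.45, 6.10 and 6.44 in DM hearts and 6.77, 6.16, 6.38 and 6.69 in NC hearts. The top 3 AngIV mice lay above every DM mouse, while the lowest AngIV mouse lay inside the DM range, and 2 NC mice lay above the DM mice as well. Ace averaged 6.66 ± 0.33 in AngIV and 6.37 ± 0.18 in DM hearts (mean ± SD, n = 4 each), a log2 change of 0.29 ± 0.17 (SE) (95% interval -0.07 to 0.65, limma adjusted p = 0.639). Against the NC mean of 6.50 ± 0.29 the change was 0.16 in AngIV (-0.20 to 0.52, limma adjusted p = 0.671) and -0.13 in DM (-0.49 to 0.23, limma adjusted p = 0.842). With the mean of the atrial markers on each array as a covariate, the AngIV against DM change of Ace was 0.42 (unadjusted p = 0.0447, limma adjusted p = 0.541). With no covariate and without AngIV replicate 1 it was 0.15. The atrial marker mean itself differed by group, at 5.27 in AngIV, 6.61 in DM and 6.41 in NC hearts. The atrial covariate fit therefore cannot separate the 2, for Ace or for the genes below. It also uses 1 slope for all groups, whereas Pearson r of Ace with that mean was -0.926 in AngIV, 0.936 in DM and 0.444 in NC hearts (4 mice each).

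Anpep encodes aminopeptidase N (CD13), the enzyme that turns angiotensin III into angiotensin IV, present on myeloid cells, pericytes and many epithelia. It had the largest change of the members above background. Its log2 signal was 6.59, 6.46, 6.31 and 5.96 in DM hearts, against 5.98, 6.08, 6.15 and 5.44 in NC hearts. In DM 3 of 4 mice lay above every NC mouse, and DM replicate 4 lay below 3 of the NC mice. Anpep averaged 6.33 ± 0.27 in DM and 5.91 ± 0.32 in NC hearts (mean ± SD, n = 4 each), a log2 change of 0.42 ± 0.20 (SE). The 95% interval ran from -0.0099 to 0.84 and the unadjusted p was 0.0549 (limma adjusted p = 0.486), so the change did not pass. Without NC replicate 4 it was 0.26 in DM against NC.

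In AngIV hearts Anpep read 6.44, 6.36, 6.41 and 5.61, with 3 mice close together and replicate 4 far below them. The AngIV mean of 6.21 ± 0.40 differed from that of DM by -0.12 (95% interval -0.55 to 0.30, limma adjusted p = 0.88). Against NC it differed by 0.29 (-0.13 to 0.72, limma adjusted p = 0.459). Without AngIV replicate 4 the change against NC was 0.49 (unadjusted p = 0.0133, limma adjusted p = 0.186), and without NC replicate 4 it was 0.14.

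**Figure D2:**
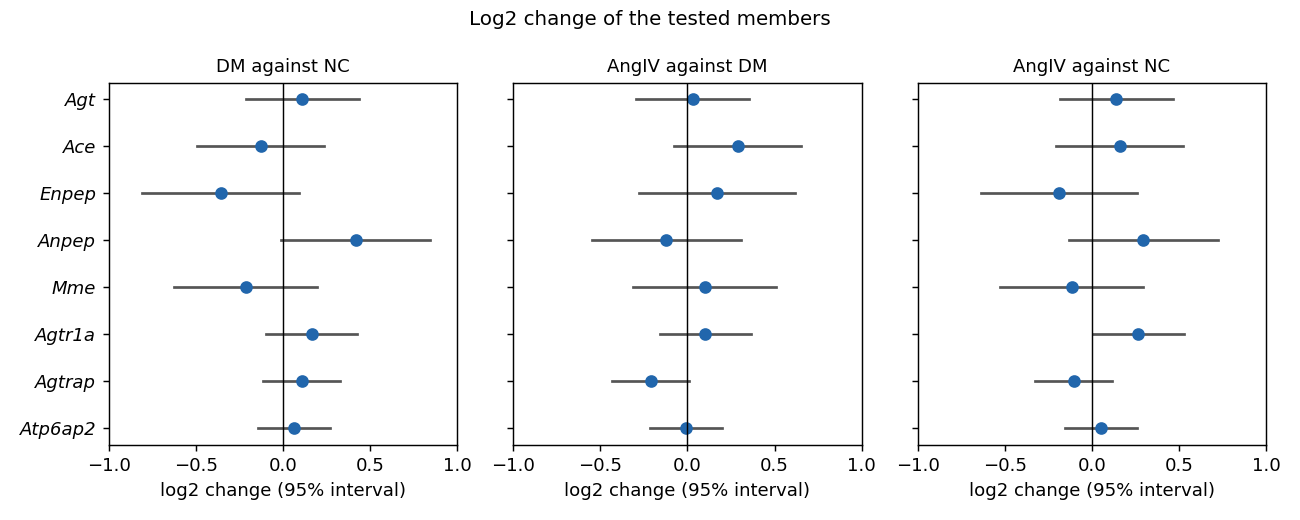
Log2 change of the 8 tested members with its 95% interval from limma, with a panel for each comparison, on a shared scale. The interval of Agtr1a in AngIV against NC begins just above 0, and all the others include 0.

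Enpep and Mme encode the aminopeptidase that makes angiotensin III and the endopeptidase neprilysin, which also clears natriuretic peptides. Neither was above background on any of the 12 arrays, so their differences are differences of signals near background. Enpep read 3.99 to 4.67 in AngIV, 3.94 to 4.64 in DM and 4.11 to 5.20 in NC hearts. Mme read 4.31 to 4.90 in AngIV, 4.32 to 4.59 in DM and 4.00 to 5.14 in NC hearts. The NC mice spread most for both genes, and their range reached above that of AngIV and DM. In DM against NC the differences were -0.36 for Enpep (95% interval -0.81 to 0.09, limma adjusted p = 0.58) and -0.21 for Mme (-0.62 to 0.20, limma adjusted p = 0.746). Single NC mice moved both: without NC replicate 3 Enpep was -0.16 and Mme -0.06. Without NC replicate 1 Enpep was -0.52 (unadjusted p = 0.0229, limma adjusted p = 0.337), and without NC replicate 2 Mme was -0.43 (unadjusted p = 0.00972, limma adjusted p = 0.321). With the macrophage covariate, added after seeing the data, they were -0.54 for Enpep and -0.36 for Mme (limma adjusted p = 0.637 and 0.743). In AngIV against DM they were 0.17 for Enpep and 0.10 for Mme, with limma adjusted p-values of 0.834 and 0.913. In AngIV against NC they were -0.19 and -0.11 (0.687 and 0.805).

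Agtr1a encodes the main type 1 angiotensin II receptor of rodents, a receptor coupled to Gq that is present on vascular smooth muscle and fibroblasts. It was above background on all arrays, at a log2 signal of 7.42, 7.59, 7.80 and 7.87 in AngIV hearts, 7.49, 7.77, 7.43 and 7.57 in DM hearts and 7.19, 7.55, 7.38 and 7.50 in NC hearts. The highest 2 mice were AngIV mice, 3 of the 4 AngIV mice lay above every NC mouse, and AngIV replicate 1 lay within the NC range. The means were 7.67 ± 0.21 in AngIV, 7.57 ± 0.15 in DM and 7.40 ± 0.16 in NC hearts (mean ± SD, n = 4 each).

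The AngIV against NC change of Agtr1a was 0.27 ± 0.12 (SE) with a 95% interval from 0.0039 to 0.53 and an unadjusted p of 0.0471, and it did not pass after adjustment (limma adjusted p = 0.261). In AngIV against DM the change was 0.10 (-0.16 to 0.36, limma adjusted p = 0.826) and in DM against NC 0.16 (-0.10 to 0.43, limma adjusted p = 0.682). It was thus the only tested member with an unadjusted p under 0.05 in any comparison, where 18.6% of all genes had one in AngIV against NC. Over 21 other settings the AngIV against NC change of Agtr1a ranged from 0.20 to 0.39, with an unadjusted limma p under 0.05 in 9. With the atrial covariate, with median centring or with only the 8 arrays compared, 0 members had such a p in AngIV against NC. Agtr1b, a close paralog whose transcripts may share probe sequence with it, averaged 4.76 in AngIV, 4.74 in DM and 4.81 in NC hearts, below background on all arrays.

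Mas1 encodes the receptor of angiotensin 1-7. Its signal was 2.90 to 3.13 in AngIV, 2.94 to 3.18 in DM and 2.83 to 3.23 in NC hearts, far below background on every array, so no change is given. Agtr2, the type 2 receptor, which opposes the type 1 receptor, was in the same state, with group means of 2.95, 2.93 and 3.01 in AngIV, DM and NC hearts. Lnpep, whose product is the binding site of angiotensin IV, and Ren1 were not analysed here.

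Agtrap encodes a membrane protein that binds the tail of the type 1 receptor and promotes its internalisation. Its log2 signal was 5.60, 5.33, 5.41 and 5.48 in AngIV hearts, 5.72, 5.48, 5.82 and 5.64 in DM hearts and 5.46, 5.55, 5.50 and 5.73 in NC hearts. In DM 3 of 4 mice lay above all AngIV mice, and DM replicate 2 lay among the AngIV mice. The signal passed background on 1 AngIV, 3 DM and 3 NC arrays. The AngIV against DM difference was -0.21 ± 0.10 (SE), of signals near background, with a 95% interval from -0.43 to 0.01 and an unadjusted p of 0.0616 (limma adjusted p = 0.569). With the atrial covariate, under the limit given for Ace, it was -0.32 (unadjusted p = 0.0112, limma adjusted p = 0.429). The differences were 0.11 in DM against NC (limma adjusted p = 0.771) and -0.10 in AngIV against NC (limma adjusted p = 0.645).

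Atp6ap2 encodes the (pro)renin receptor, an accessory protein of the vacuolar proton pump present in most cells, and was the steadiest member. Its log2 signal was 6.39 to 6.66 in AngIV, 6.37 to 6.66 in DM and 6.42 to 6.55 in NC hearts, above background on all arrays. The group means of 6.52 ± 0.12, 6.53 ± 0.13 and 6.47 ± 0.06 (AngIV, DM and NC, mean ± SD, n = 4 each) lay close together against the spread of the AngIV and DM mice. The changes were 0.06 in DM against NC (95% interval -0.14 to 0.27, limma adjusted p = 0.869), -0.01 in AngIV against DM (-0.22 to 0.20, limma adjusted p = 0.987) and 0.05 in AngIV against NC (-0.15 to 0.26, limma adjusted p = 0.824).

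For the members above background on all arrays, the 95% intervals of the 3 comparisons together ran, on the log2 scale, from -0.22 to 0.27 for Atp6ap2, from -0.16 to 0.53 for Agtr1a, from -0.49 to 0.65 for Ace and from -0.55 to 0.84 for Anpep. Their widths follow the spread between mice. The SD within groups was 0.10 log2 units for Atp6ap2, lower than that of all but 8.1% of tested genes, and 0.17 for Agtr1a, close to the median gene at 0.18. It was 0.27 for Ace and 0.33 for Anpep, at percentiles 86.6 and 94.9 of the tested genes. Agtrap stood at percentile 17.5 with an SD of 0.13, and the dim members Agt, Mme and Enpep stood at 76.7, 93.6 and 96.0.

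By Pearson r, the closest relations between a member and a cell type's markers across mice were those of Anpep and Atp6ap2 with the macrophage markers. Anpep correlated with the mean of 9 macrophage markers over the 12 arrays (Pearson r = 0.789, permutation p = 0.00214; Spearman rho = 0.797, permutation p = 0.00304), and within groups after removal of the group means r was 0.728. Without the 2 arrays farthest from the median of the marker mean r was 0.757. By group, over 4 mice each, r was 0.939 in AngIV, 0.865 in DM and 0.176 in NC hearts. Atp6ap2 gave r = 0.756 (permutation p = 0.00487), rho = 0.727 (permutation p = 0.00919), 0.763 within groups and 0.673 without the 2 farthest arrays. By group its r was 0.910 in AngIV, 0.760 in DM and 0.0469 in NC hearts. By rho 2 other relations were closer than that of Atp6ap2 with the macrophage markers. They were Enpep with the ventricular cardiomyocyte markers (rho = 0.755, permutation p = 0.00633; r = 0.582, permutation p = 0.0459, 0.643 without the 2 farthest arrays) and Atp6ap2 with the endothelial markers (rho = 0.741, permutation p = 0.00762; r = 0.596, permutation p = 0.0417, 0.648 without the 2 farthest arrays). The permutations shuffled all 12 arrays without regard to group, so their p-values also take in differences between groups. No p was computed for r within groups. The relations described are 4 of 80 between 8 members and 10 marker lists, chosen for description after their values had been seen. Of the 80, 8 had a permutation p under 0.05 and 0 after Benjamini-Hochberg adjustment, where the adjusted p of Anpep with the macrophage markers was 0.171 and that of Atp6ap2 0.195 for r. The other 2 described relations had 0.482 for r, and all 4 described had 0.184 for rho. The remaining 4 of the 8 were negative. Agtr1a had r = -0.692 with the fibroblast markers (permutation p = 0.0134, r = -0.156 without the 2 farthest arrays) and -0.646 with the mast cell markers (0.0235, -0.349). Agt had -0.612 with the adipocyte markers (0.02955, -0.347), and Enpep -0.577 with the epicardial markers (0.0482, -0.509). In the mast cell and epicardial lists 0 markers averaged above background, and in the adipocyte list 1 of 7 did, Cidea.

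**Figure D3:**
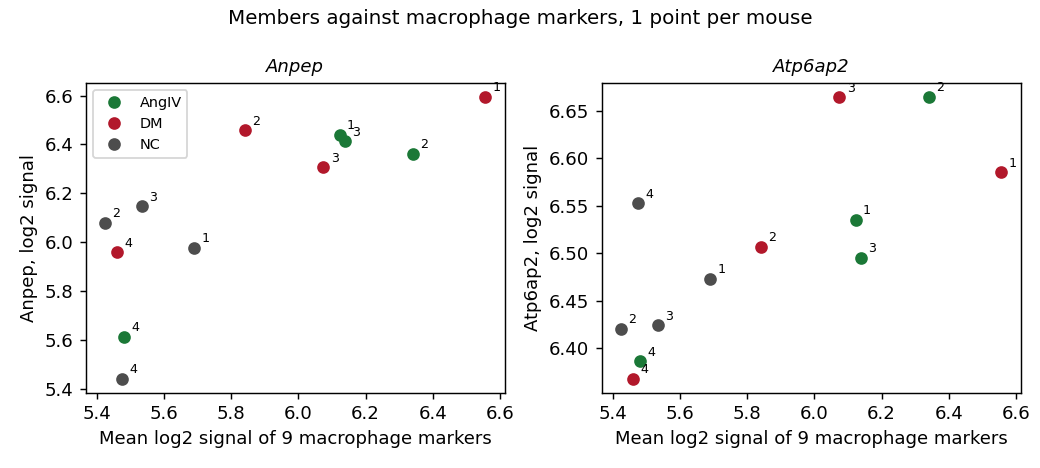
Log2 signal of Anpep (left) and Atp6ap2 (right) against the mean log2 signal of 9 macrophage markers, 1 point a mouse with its replicate number, coloured by group. Replicate 4 of AngIV and of DM lies toward the low end of both axes for both genes.

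The macrophage markers, like Anpep, were on average brighter in both diabetic groups than in NC. All 9 tested macrophage markers had a positive change in DM against NC and in AngIV against NC, 3 in each at an unadjusted p under 0.05 and 0 called, and 5 of 9 were positive in AngIV against DM. Of all 13653 tested genes 6766 and 6912 were positive in DM and in AngIV against NC, and 10.7% and 18.6% had such a p. The largest DM against NC changes of the list were those of Mpeg1 (1.17) and Cd163 (0.87), both below background on all NC arrays. Csf1r and C1qa, the receptor of the macrophage growth factor and a complement subunit made by macrophages, were above background on all arrays, at means of 6.90 and 6.88 in AngIV, 6.89 and 7.12 in DM and 6.56 and 6.72 in NC hearts, while Adgre1, which encodes the F4/80 antigen, was above it on 1 DM array. With the marker mean as a covariate, an analysis added after seeing the data, the DM against NC change of Anpep was 0.10 (limma unadjusted p = 0.581) and its AngIV against NC change was -0.05, with the sign turned. Under the same covariate the changes of Atp6ap2 were -0.04 in DM against NC and -0.06 in AngIV against NC, and that of Agtr1a in AngIV against NC was 0.39 (unadjusted p = 0.0131, limma adjusted p = 0.283). The marker mean itself differed by group, at 6.02 in AngIV, 5.98 in DM and 5.53 in NC hearts, so this fit cannot separate the 2. Of its 9 markers 5 averaged above background. The part of macrophage content in these values was not tested.

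No pair of members was related past the threshold from mouse to mouse. Of 28 pairs among the 8 tested members 0 had a permutation p under 0.05 over the 12 arrays, and the smallest adjusted p was 0.804. For the 4 members above background in all groups, the tested genes with the most similar pattern over the 12 arrays were taken by Pearson r, with no p because they were picked as the highest. They were Ehbp1l1 (r = 0.901) and Endod1 (0.858) for Ace, Tbcd (0.881) and Adgra2 (0.864) for Anpep, Gadd45b (0.943) and Zfand2b (0.920) for Agtr1a, and Tm6sf1 (0.896) and Helb (0.857) for Atp6ap2. The 12 arrays come from 1 tissue, and their atrial and macrophage marker means differed as given above.

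The other genes of the system and of type 1 receptor signalling were taken from 4 lists holding 46 genes besides the members, of which 30 were tested. In DM against NC 22 had a positive and 8 a negative change, where 6766 of all 13653 genes had a positive one, and 0 were called. In AngIV against DM the split was 17 to 13, where 7227 of all genes were positive, and 0 were called. In AngIV against NC it was 19 to 11, where 6912 of all genes were positive, and 1 of 30 was called, near the 2.15% of all genes. The medians over these genes were 0.06, 0.02 and 0.07 in the same order. At an unadjusted limma p under 0.05, 3 were positive and 0 negative in DM against NC, and 2 and 2 in AngIV against DM. In AngIV against NC the counts were 7 and 1. Of all genes 10.7%, 8.78% and 18.6% had such a p in the same order. The gene called, Jak2, belongs to the signalling list, which supplied 16 of the 30 tested genes. Of the positive and negative counts that list held 2 and 0, 2 and 2, and 5 and 1.

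Jak2 encodes a tyrosine kinase that the type 1 receptor and cytokine receptors activate. Its log2 signal was 6.31, 6.49, 6.38 and 6.29 in AngIV hearts, 6.24, 6.07, 5.65 and 5.68 in DM hearts and 5.77, 5.54, 5.89 and 5.87 in NC hearts. All 4 AngIV mice lay above every DM and every NC mouse, and DM replicates 1 and 2 lay above the NC mice. Of all genes 5.76% had separate groups in AngIV against DM and 12.8% in AngIV against NC. The pathway genes described here were picked by their unadjusted p, which favours separate groups. Jak2 was above background on all AngIV and DM arrays and on 3 of 4 NC arrays. Its NC mean of 5.77 was near the mean NC background level of 5.48. Jak2 rose in AngIV against NC by 0.60 ± 0.14 (SE) on the log2 scale (95% interval 0.31 to 0.89, limma adjusted p = 0.0335). Against DM the change was 0.46 (unadjusted p = 0.00402, limma adjusted p = 0.387). The call held in 11 of 21 other settings, with adjusted p-values from 0.0159 to 0.255 over the 21. It was lost with no filter on dim genes, with replicate number as a block, without any 1 of the AngIV mice or of NC replicates 1, 2 and 4, and with the macrophage covariate, under which the change was 0.44 (limma adjusted p = 0.255).

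Plcb4, a phospholipase C that acts below Gq, read 6.85 to 7.05 in AngIV, 6.21 to 6.98 in DM and 6.08 to 6.51 in NC hearts. The AngIV mice lay above all NC mice, and DM replicate 1, at 6.98, lay among them. Its AngIV against NC change was 0.57 ± 0.15 (SE; limma adjusted p = 0.0604) and its AngIV against DM change 0.46 (limma adjusted p = 0.46), so neither passed. Rgs2, which switches off Gq signals, read 5.01, 6.76, 5.58 and 5.66 in AngIV hearts, 6.32 to 6.79 in DM hearts and 6.28 to 7.03 in NC hearts. Except for replicate 2 the AngIV mice lay below all others. Rgs2 was above background on 3 of 4 AngIV arrays, where the mean background level was 5.53, so its low AngIV signals are near background. The change of Rgs2 was -0.81 against DM (limma adjusted p = 0.492) and -0.89 against NC (limma adjusted p = 0.114), so neither passed. Without AngIV replicate 2, the AngIV mouse with the highest signal, the change against NC was -1.23. That was the only 1 of 21 other settings in which Rgs2 was called against NC.

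Grk5 encodes a kinase that desensitises G protein-coupled receptors. It read 6.23, 6.31, 6.20 and 5.54 in AngIV hearts, 7.02, 6.43, 6.60 and 6.33 in DM hearts and 6.06, 6.01, 6.06 and 6.07 in NC hearts. Every DM mouse lay above every AngIV and NC mouse. Of all genes 5.30% had separate groups in DM against NC and 5.76% in AngIV against DM. The changes of 0.55 ± 0.17 (SE) in DM against NC and -0.53 ± 0.17 in AngIV against DM had unadjusted p-values of 0.00555 and 0.00721 and did not pass (limma adjusted p = 0.246 and 0.46), and the 2 share the DM arrays. With the macrophage covariate the DM against NC change was 0.21 (unadjusted p = 0.0713), and the AngIV against DM change was -0.55 (limma adjusted p = 0.184). Without AngIV replicate 4 the AngIV against DM change was -0.35 (limma adjusted p = 0.716).

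**Figure D4:**
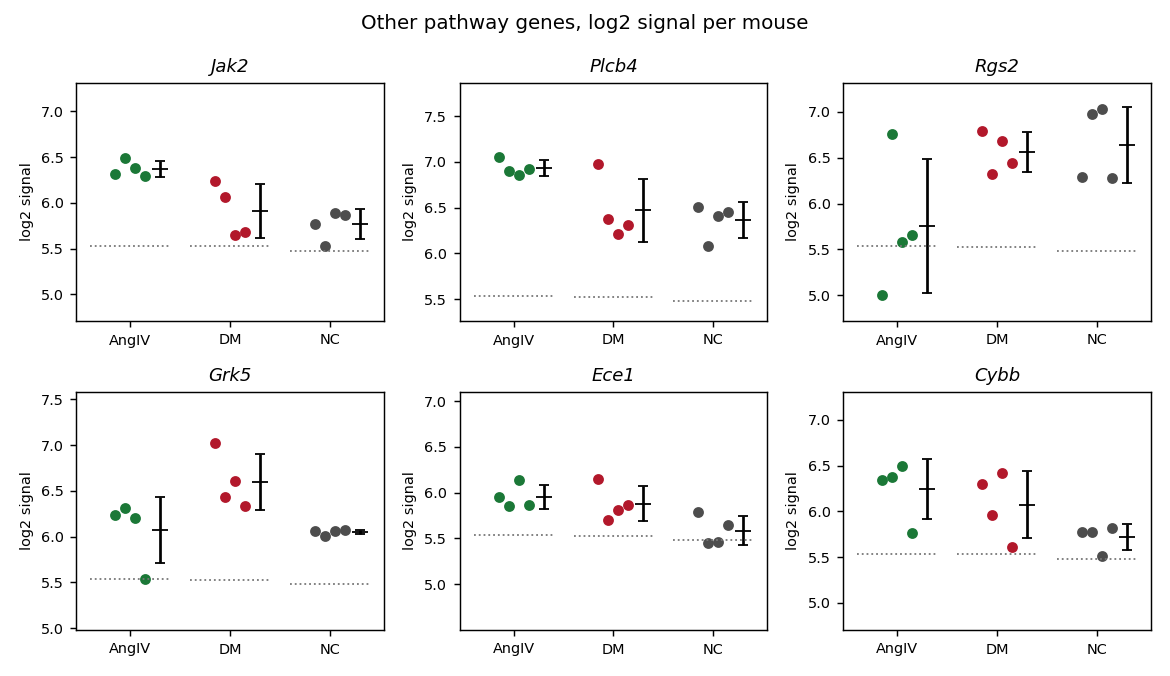
Log2 signal of 6 other pathway genes in AngIV, DM and NC hearts, 1 point a mouse, with the mean and SD of 4 mice beside each group and the group's mean 95th percentile of negative controls dotted. The AngIV points of Jak2 lie above all others, and the DM points of Grk5 lie above all others. The genes were picked by their unadjusted p.

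Ece1, a peptidase that makes endothelin and also cuts angiotensin I and bradykinin, had changes of 0.30 in DM against NC (unadjusted p = 0.0249) and 0.37 in AngIV against NC (unadjusted p = 0.00747), with limma adjusted p-values of 0.378 and 0.114. With the macrophage covariate its DM against NC change was 0.19. Ece1 was above background on all AngIV and DM arrays and on 3 of 4 NC arrays, with an NC mean of 5.59. Cybb and Ncf1, subunits of the phagocyte NADPH oxidase and therefore also macrophage genes, had 0.52 and 0.44 in AngIV against NC (limma adjusted p = 0.135 and 0.164), and 0.35 and 0.43 in DM against NC (limma adjusted p = 0.521 and 0.354). With the macrophage covariate these were 0.18 and 0.19 in AngIV against NC and 0.04 and 0.20 in DM against NC. Without DM replicate 1 the DM against NC difference of Ncf1 was 0.28. Cybb averaged 6.24 in AngIV, 6.07 in DM and 5.72 in NC hearts. Ncf1 lay below background on all NC arrays, so its difference is one of signals near background.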

How the data were processed

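Total RNA of 12 hearts was hybridised to Affymetrix arrays, per the labels' protocols. The authors deposited log2 signals made with RMA (background correction, quantile normalization and summary over probes), per the submitters' processing notes; for version and build, the sources used here give nothing. Groups came from sample titles. Quantile normalization hides changes in total RNA and RMA compresses differences near background.

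From these values, 1 probe set per gene (highest mean) was kept, the dimmest 30% of 19505 genes (mean log2 under 3.40) were left out, and 13653 genes were fitted with limma 3.58.1 (lmFit, eBayes) in R 4.3.3, with 1 mean per group, all 12 arrays sharing 1 spread, and Benjamini-Hochberg adjustment. The fit was tested on simulated data. Correlations across arrays used 100000 permutations of all 12 arrays, without regard to group (scipy 1.17.1, numpy 2.4.6). Arrays' median log2 signal over tested genes was 5.38 to 5.39 by group, correlations between arrays were 0.961 to 0.986, and the number of arrays limits the precision.

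All members were described. Other pathway genes were named at an unadjusted p under 0.05, at most 6 a comparison in order of p, besides Lnpep, Ren1, Agtr2 and Agtr1b, and for each bright member the 2 genes most like it. Members and lists were chosen with earlier results of these data known. Replicate numbers were not taken to pair the samples (correlation of deviations -0.115 to 0.208 for 12 same-numbered pairs and -0.214 to 0.233 for 36 others). Alternatives were other filters, a trend in the prior, array weights, median centring, only the 8 arrays compared, a replicate block, atrial and macrophage covariates, and each array left out.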

Additional observations from a re-analysis of the deposited data

Results flagged for a closer look

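Each group of 4 mice was checked for a single mouse standing apart (by Dixon's ratio of the gap to the nearest mouse over the group's range, at its 95% critical value). Of 51 groups checked, over the members and the other named genes, 5 had one, where chance gives about 1 in 20. Ace read 6.10 on DM replicate 3, below 6.44 to 6.49 on the other DM arrays. Anpep read 5.61 on AngIV replicate 4, below 6.36 to 6.44 on the others, and Grk5 read 5.54 on the same array, below 6.20 to 6.31. Cybb read 5.51 on NC replicate 3, below 5.78 to 5.81. Mas1 read 2.83 on NC replicate 4, below 3.17 to 3.23, with all 4 values far under background.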

How the results depend on the processing

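Of the 8 tested members 0 were called in any comparison under any of 21 other settings, 1 of which (the macrophage covariate) was chosen after seeing the data; their smallest adjusted p was 0.167, for Agtr1a in AngIV against NC without AngIV replicate 1. With the dimmest 50% of genes left out, Enpep and Mme were no longer tested. The DM against NC change of Anpep ranged from 0.10 to 0.54, with an unadjusted p under 0.05 in 9 of 21 settings. Its smallest unadjusted limma p was 0.0022, with the replicate block, and its limma adjusted p was 0.213 or more throughout. Anpep was lowest on replicate 4 in each group. Counts over all genes depended more on the setting. In DM against NC 3 genes were called, against 20 with the dimmest 50% left out, 29 with a trend in the prior, 5 with only the 8 arrays compared, 5 with the atrial and 1 with the macrophage covariate, and 3 to 30 without 1 array (30 without DM replicate 4). In AngIV against DM 0 were called, against 0 to 5 without 1 array (5 without AngIV replicate 2). In AngIV against NC 293 were called, against 492, 576 and 466 under the same first 3 settings, 20 with the macrophage covariate and 104 to 469 without 1 array (104 without AngIV replicate 4, 469 without DM replicate 1). With a replicate block, 3, 0 and 218 genes and 0 members were called; the block ended the call of Jak2. Plcb4 in AngIV against NC was called in 6 of 21 settings. The cause of these shifts was not tested. Signal over background limits Agt, Enpep, Mme, Agtrap and Mas1.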
